A study of Caenorhabditis elegans with 3 samples.

Results

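The genes described here carry the class names bath, math and btb in the nematode Caenorhabditis elegans. They were taken as the probes that the array's annotation maps to a single gene symbol of 1 of these 3 classes: 95 probes for 94 genes, out of 15168 genes with a probe of their own. There were 32 bath, 44 math and 18 btb genes. The gene table of assembly WBcel235 lists 43, 49 and 22 genes under these names, so 20 named genes have no probe of their own in the set. All 94 genes had a value on all 3 arrays. The annotation calls 79 of them protein-coding and 15 pseudogenes.

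The class names stand for the domains of the encoded proteins. A btb gene encodes a BTB domain, a math gene a MATH domain and a bath gene both. As background, BTB domains bind the cullin CUL-3, the scaffold of a ubiquitin ligase, and MATH domains bind substrates, so a protein with both can bring a substrate to the ligase for tagging and destruction by the proteasome. The best known C. elegans adaptor of this kind, MEL-26, removes the microtubule-severing katanin MEI-1 after female meiosis, so that the first mitotic spindle of the embryo can form. Many MATH and BTB genes of C. elegans lie in tandem arrays on chromosome II. The domain content of the proteins was not examined here.

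RNA from early L4 hermaphrodites was hybridised on 2-colour arrays against a wild-type mixed reference RNA. L4 is the last larval stage, in which the hermaphrodite gonad makes sperm before it turns to oocytes. There was 1 group, of 3 preparations, each on an array of its own with the reference in channel 1 and the L4 RNA in channel 2. The labels give no strain for the L4 worms, no age or culture conditions and no composition of the reference, and they do not say whether the preparations came from separate cultures. The p-values therefore cover the spread of these arrays alone, which may be technical.

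Values are log2 ratios after centring each array on its median, and a positive ratio is read as more RNA in early L4 than in the reference. That reading is likely, because the sample descriptions put L4 before the reference, but no label states it. Where a gene is said to have risen or fallen, its RNA is read as higher or lower than in the reference. No change over time was measured. A ratio says nothing of how abundant an RNA is, and in RNA of whole worms fewer cells of a type and less RNA per cell cannot be told apart. A gene was called when its mean ratio differed from 0 at an adjusted p under 0.05 (limma, two-sided, Benjamini-Hochberg over the 15159 genes tested), which held for 22.7% of all genes, 12.6% higher and 10.1% lower. Marker genes are given as a description and are no independent check of the stage, since an earlier look at these data had already shown many of them to move. All 7 sperm markers were called higher (median log2 ratio 2.31), and all 5 cuticle markers (median 4.94). All 7 oocyte and eggshell markers were called lower (median -2.34). Markers of other tissues moved as well: 3 of 4 muscle markers were called higher, and of 4 intestine markers 2 were called higher and 1 lower (vit-2, a yolk protein gene, at -3.90 ± 0.92). Neither of the measured male markers was called, with pkd-2 at 0.01 ± 0.31 and lov-1 at -0.14 ± 0.29 (SD, n = 3).

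Early L4 worms differed from the reference at 11 of the 94 genes (11.7%, against 22.7% of all genes). The 3 called higher were bath-37, btb-14 and math-33. The 8 called lower were bath-9, bath-10, bath-38, bath-41, bath-42, bath-44, math-38 and btb-6. Mean log2 ratios of all 94 genes ran from -1.58 to 0.88, and 7 genes (7.45%) were 2-fold or more from the reference, compared with 14.8% of all genes. The lower and upper quartiles of the members were -0.41 and 0.07, around a median of -0.18. All genes tested had a median of -0.01, with quartiles of -0.36 and 0.37. The spread between arrays was like that of other genes, with a median SD of 0.33 for the members and 0.36 for all genes. The arrays correlated less over the members than over all genes. For preparations 1 and 2, r was 0.51 against 0.68, for 1 and 3 it was 0.40 against 0.64, and for 2 and 3 0.635 against 0.81. Values had 1 sign on all 3 arrays for 49 members (52.1%) and for 53.7% of all genes.

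The 3 classes had similar medians and unequal shares of called genes. Of all genes tested 22.7% were called, 12.6% higher and 10.1% lower. Of the bath genes 7 of 32 were called (21.9%, near that of all genes), 1 higher and 6 lower (18.8%). Of the math genes 2 of 44 were called (4.55%), 1 in each direction, and of the btb genes 2 of 18 (11.1%), again 1 in each direction. At an unadjusted limma p under 0.05 there were 11 bath, 6 math and 2 btb genes, against 5255 of all 15159 genes tested. Class medians were close together: -0.23 for bath, -0.15 for math and -0.20 for btb. The bath median minus the math median was -0.25, -0.04 and 0.01 for preparations 1, 2 and 3, a mean of -0.09 ± 0.14 (SD, n = 3), so this difference was smaller than its spread between arrays. Taken in the same way, as means over the arrays, bath minus btb was 0.02 ± 0.11, also smaller than its spread, and math minus btb 0.12 ± 0.12. The class medians of the gene means differed by -0.03 for bath minus btb and 0.05 for math minus btb. The sign of bath minus btb thus depended on the measure. The classes were compared as lists only, with no test of the lists.

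**Figure D1:**
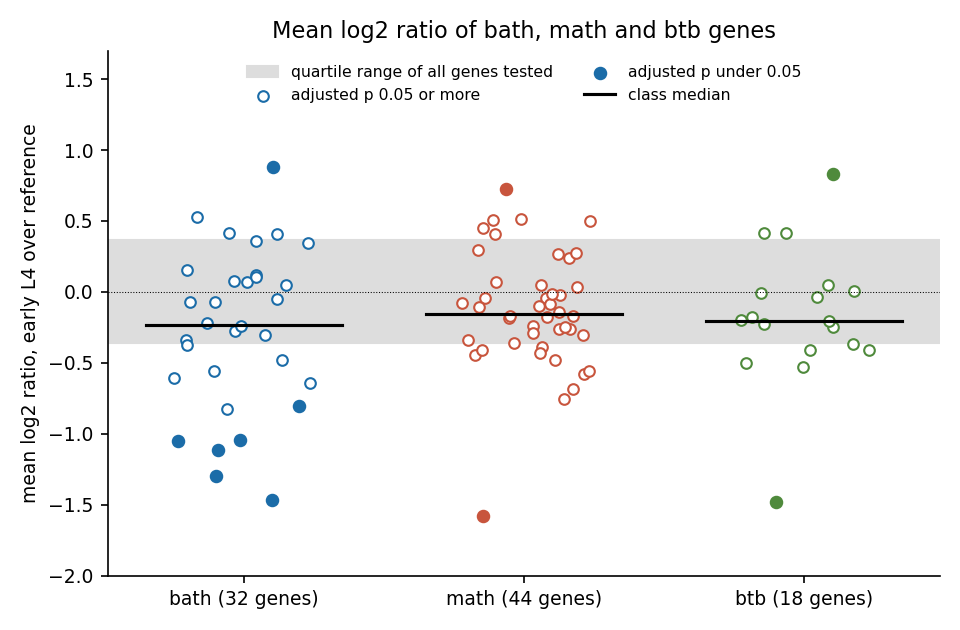
Mean log2 ratio of early L4 over reference (y axis) for the 32 bath, 44 math and 18 btb genes. Each point is a gene, filled where the limma adjusted p was under 0.05; black lines are class medians (-0.23, -0.15 and -0.20), and the grey band is the quartile range of all genes tested. The filled points lie outside the band, and most open points of the math and btb classes lie inside it.

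The bath class held 6 of the 8 genes called lower. bath-10 (Y49F6C.4) had log2 ratios of -2.40, -1.02 and -0.97 on the arrays of preparations 1, 2 and 3. Preparation 1 stood well below the others, and the mean was -1.46 ± 0.82 (SD, n = 3; 2.76-fold lower; limma adjusted p = 0.00707). Its neighbour bath-9 (Y49F6C.3) was lowest on another array, with -0.86, -1.35 and -1.68. Its mean was -1.30 ± 0.41 (2.46-fold lower; limma adjusted p = 0.00382). Such neighbours can be copies of each other whose probes share RNA, so the 2 may not be separate measurements.

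A further 4 bath genes that fell stand alone in the genome. bath-44 (C07D10.2, chromosome II) gave -1.24, -1.06 and -1.05, the tightest of the called genes, with a mean of -1.12 ± 0.11 (2.17-fold lower; limma adjusted p = 0.00466). bath-42 (C50C3.8, chromosome III) gave -1.34, -0.98 and -0.83, a mean of -1.05 ± 0.26 (limma adjusted p = 0.00791). bath-41 (F37A4.9, chromosome III) gave -1.34, -0.87 and -0.92, a mean of -1.04 ± 0.26 (limma adjusted p = 0.00812). These genes were about 2-fold lower on average, with preparation 1 the lowest for all of them. bath-38 (F52H3.3, chromosome II) was nearer the threshold, with -1.21, -0.52 and -0.68 and a mean of -0.80 ± 0.36 (1.75-fold lower; limma adjusted p = 0.0327). It was not called without preparation 1, 2 or 3 (adjusted p = 0.0602, 0.0593 and 0.0761).

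One bath gene rose. bath-37 (K08E4.5, chromosome IV) had log2 ratios of 0.98, 0.57 and 1.09, a mean of 0.88 ± 0.27 (1.84-fold higher; limma adjusted p = 0.0185). It was positive on every array, and without preparation 3 it was not called (adjusted p = 0.123). The next highest bath genes did not pass: bath-1 (F59H6.9) had 0.53 ± 0.20 and bath-20 (B0047.1) 0.41 ± 0.09 (SD, n = 3; limma adjusted p = 0.115 and 0.201). bath-39 (F25H9.4), chosen after its values were seen, was far lower on 1 array than on the others. It had -2.05 on preparation 1 against -0.08 and -0.35 on the others, and its mean of -0.83 ± 1.07 was not called (limma adjusted p = 0.127). It was called without preparation 2 and without preparation 3.

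Among the math genes 1 fell and 1 rose. math-38 (T07H3.3, chromosome II) had the lowest ratio of all 94 genes, with -1.20, -1.42 and -2.12 and a mean of -1.58 ± 0.48 (2.99-fold lower; limma adjusted p = 0.00162). math-33 (H19N07.2, chromosome V) gave 0.74, 0.95 and 0.49, a mean of 0.73 ± 0.23 (1.66-fold higher; limma adjusted p = 0.0395). As background, math-33 encodes a deubiquitinating enzyme related to mammalian USP7, which removes ubiquitin and stabilises the transcription factor DAF-16 when insulin signalling is low. The gene lies apart from the tandem arrays. It was close to the threshold and was not called without preparation 2 (adjusted p = 0.285), without preparation 3 (0.0851) or with trend and robust variance settings (0.0538).

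The other 42 math genes did not pass. The lowest of them were math-35 (R52.3), annotated as a pseudogene, at -0.75 ± 0.66, and math-5 (C16C4.10) at -0.69 ± 0.69 (SD, n = 3). In both, preparation 1 was far below the others: math-35 had -1.51, -0.39 and -0.36, and math-5 had -1.40, -0.61 and -0.04. The highest were math-15 (C16C4.5) at 0.51 ± 0.52 and math-21 (C40D2.3) at 0.51 ± 0.57, each carried by 1 array, with 1.09 on preparation 2 for math-15 and 1.12 on preparation 1 for math-21. Of the 44 math genes, 19 (43.2%) had 1 sign on all 3 arrays, against 65.6% of bath genes, 50% of btb genes and 53.7% of all genes tested.

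Among the btb genes 1 fell and 1 rose. btb-6 (F45C12.7, chromosome II) had -0.86, -2.08 and -1.51, a mean of -1.48 ± 0.61 (2.79-fold lower; limma adjusted p = 0.00339). The genes beside it in the same group of btb genes were not called: btb-7 (F45C12.12) had -0.53 ± 0.58, btb-8 (F45C12.6) -0.36 ± 0.08 and btb-9 (F45C12.4) -0.41 ± 0.23 (SD, n = 3; btb-8 and btb-9 chosen after their values were seen). btb-14 (Y57A10B.3, chromosome II) gave 1.01, 1.10 and 0.39, a mean of 0.83 ± 0.39 (1.78-fold higher; limma adjusted p = 0.03). Preparation 3 was the lowest for btb-14, and the call was lost without preparation 1 (adjusted p = 0.0551) or 2 (0.205). btb-5 (W05G11.5) and btb-15 (C08E3.2, a pseudogene) had 0.41 ± 0.64 and 0.41 ± 0.23, and btb-10 (K02E7.9) had -0.50 ± 0.32; none of these was called.

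**Figure D2:**
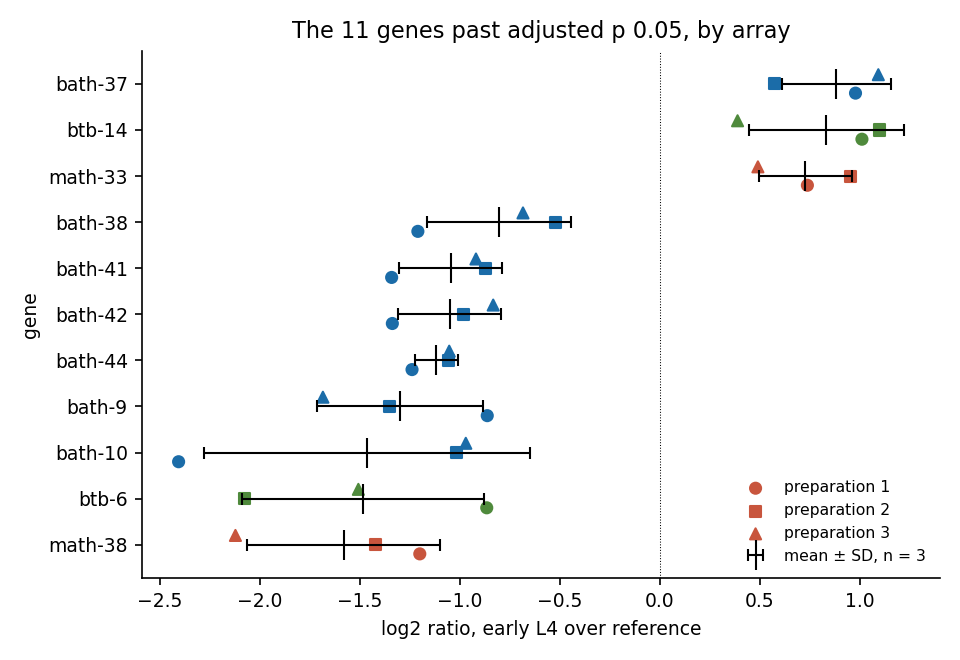
Log2 ratio of early L4 over reference (x axis) for the 11 called genes, by preparation (circle, square, triangle), with the mean and SD over 3 arrays in black; blue is bath, red math and green btb. All 3 arrays lie on 1 side of 0 for every gene, and bath-10 has the widest spread (SD 0.82).

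None of the genes in the largest group of neighbours was called, while the share among genes that lie alone depended on how neighbours were defined. This grouping by place was made after the values were seen, and no difference between its groups was tested. Members with at most 10 coding genes or pseudogenes between them in the gene table were put in 1 cluster. The largest cluster, on chromosome II from math-15 to bath-14, spans 66 genes, of which 45 bear the 3 class names and 38 were measured: 26 math, 10 bath and 2 btb genes. None of these 38 was called (0%, and 0 also with trend and robust limma settings). An unadjusted p under 0.05 held for 2 of them, math-5 and bath-1, and for 5255 of all 15159 genes tested. The mean ratios of the 38 lay between -0.69 and 0.53, with a median of -0.09.

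In smaller clusters 4 of 40 genes were called (10%), all lower. In genes that stand alone it was 7 of 16 (43.8%), 3 higher and 4 lower. The background over all genes was 22.7%. The 10 single bath genes had values of 1 sign on all 3 arrays in 10 cases, and 5 of them were called. In the largest cluster 5 of 10 bath genes had 1 sign and none was called. Of all genes tested 53.7% had 1 sign. Signs were counted at the limit of 10 genes between neighbours only. Without preparation 3, 1 gene of the largest cluster (math-5) passed. With at most 20 genes allowed between neighbours, the largest cluster grew to 64 measured genes, of which 2 (math-38 and btb-6) were called, and 7 of 16 single genes were called as before. With no gene allowed between neighbours, 8 of 37 single genes were called (21.6%), near the 22.7% of all genes, and 0 of the 12 genes of the largest cluster (limma).

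Other genes in that stretch of chromosome II were counted beside the members, with no test of the difference from all genes. Of all 15159 genes tested 22.7% were called, and 5255 had an unadjusted p under 0.05. Of 13 other measured genes that lie inside the largest cluster 0 were called (limma), 2 had an unadjusted p under 0.05, and their median was -0.19. Of 111 other measured genes in the 100 places on each side, 17 were called (15.3%), 4 higher and 13 lower, with a median of -0.20. Spot brightness was not used here, so whether the probes of the cluster were dim was not tested. Of the 15 pseudogenes 0 were called (limma), with 2 at an unadjusted p under 0.05 and a median of -0.14; of the 79 protein-coding genes 11 were called (13.9%), with a median of -0.18.

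Inside the largest cluster the 10 bath genes had a median of 0.09, the 26 math genes -0.15 and the 2 btb genes -0.23. The array medians of the bath genes were 0.00, 0.17 and 0.40 on preparations 1, 2 and 3, those of the math genes -0.07, -0.08 and -0.05, and those of the btb genes -0.57, 0.04 and -0.17. The bath and btb medians thus varied widely between arrays, and the classes were not tested against each other here. The bath genes beside one another near the end of the cluster were mostly above 0: bath-1 had 0.33, 0.53 and 0.72, bath-5 (F59H6.11) 0.18, 0.37 and 0.48, bath-19 (F59H6.1) 0.59, 0.18 and 0.44, and bath-20 0.52, 0.38 and 0.35. These 4 were positive on every array and none was called (bath-5 and bath-19 were picked with their values in view). A cluster of bath genes elsewhere on chromosome II lay on the other side of 0. It has 8 named genes over 15 places, and the 5 measured had a median of -0.64: besides bath-9 and bath-10, bath-29 (F14D2.4) had -0.64 ± 0.24, bath-27 (F14D2.1) -0.61 ± 0.34 and the pseudogene bath-23 (Y49F6C.5) -0.07 ± 0.33 (SD, n = 3). bath-27, bath-29 and bath-23, also chosen after their values were seen, were not called; bath-29 was called after quantile normalization.

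**Figure D3:**
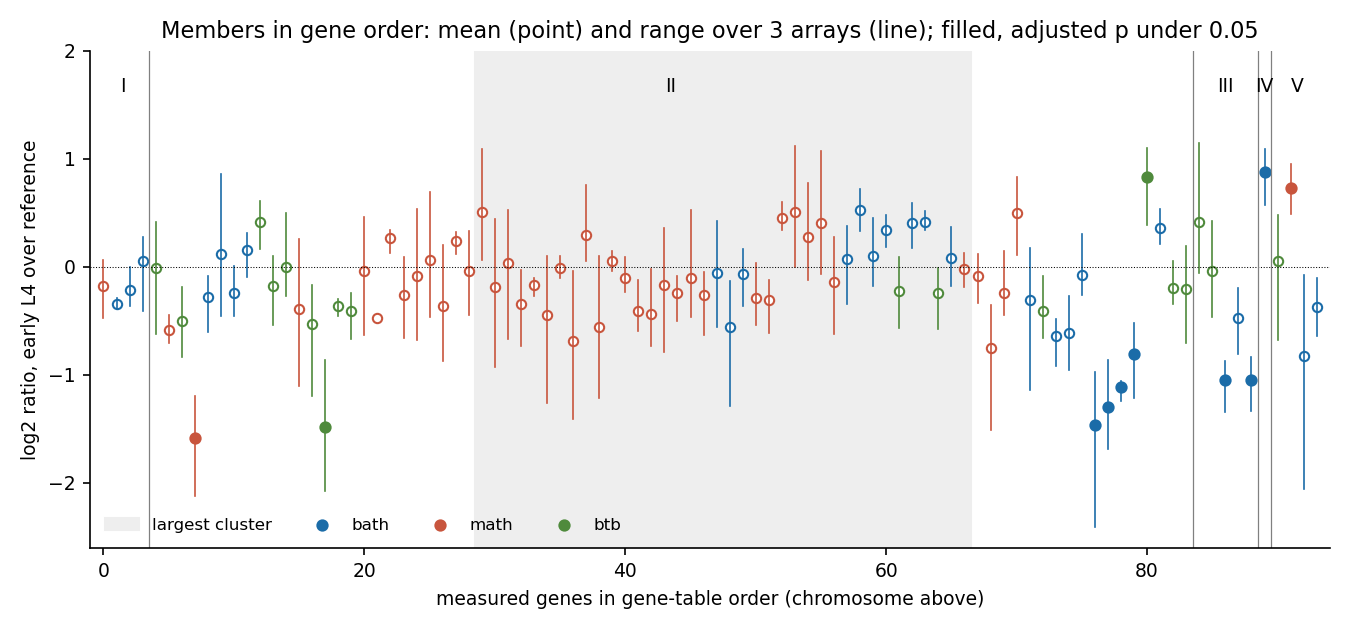
The 94 genes in the order of the gene table (x axis, chromosome names above) with the mean log2 ratio of early L4 over reference (point) and the range over 3 arrays (line) on the y axis; filled points have an adjusted p under 0.05, and the grey area is the largest cluster. No filled point lies in the grey area, and most filled points lie to its right, among genes of the bath class.

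The genes of the CUL-3 ligase were measured in part. A list of 24 genes was made around CUL-3, its activation by the ubiquitin-like protein NED-8, and its substrate katanin. It also holds csn-1 to csn-7, ulp-3, ppfr-1, pph-4.1, pph-4.2 and unc-89. Of these 24 genes 15 were measured, of which 4 fell, 0 rose and 11 did not pass. The share called was 26.7%, near the 22.7% of all genes, and the median was -0.38. cul-3 itself has no measured value here. mel-26 (ZK858.4), which encodes the adaptor with a MATH and a BTB domain but carries another class name, had -1.16, -1.92 and -1.59, a mean of -1.56 ± 0.38 (2.94-fold lower; limma adjusted p = 0.00134).

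The katanin subunits fell with the adaptor. mei-2 (F57B10.12), the partner of MEI-1, had -1.14, -2.0 and -2.10, a mean of -1.74 ± 0.53 (3.35-fold lower; limma adjusted p = 0.00111), and mei-1 (T01G9.5), the severing subunit, -1.43, -0.61 and -0.73, a mean of -0.92 ± 0.44 (limma adjusted p = 0.0216). As background, these proteins act in the oocyte and the early embryo, and the 7 oocyte and eggshell markers were also lower, at ratios from -4.18 to -0.92. Their part in the lower ratios of mel-26, mei-1 and mei-2 was not tested, nor was it for the bath genes that fell. rbx-2 (R10A10.2), a RING subunit of cullin ligases, had -0.29, -0.90 and -1.07, a mean of -0.75 ± 0.41 (limma adjusted p = 0.046); its call was lost without preparation 2 or 3 (adjusted p = 0.222 and 0.271) and with trend and robust settings (0.0543).

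**Figure D4:**
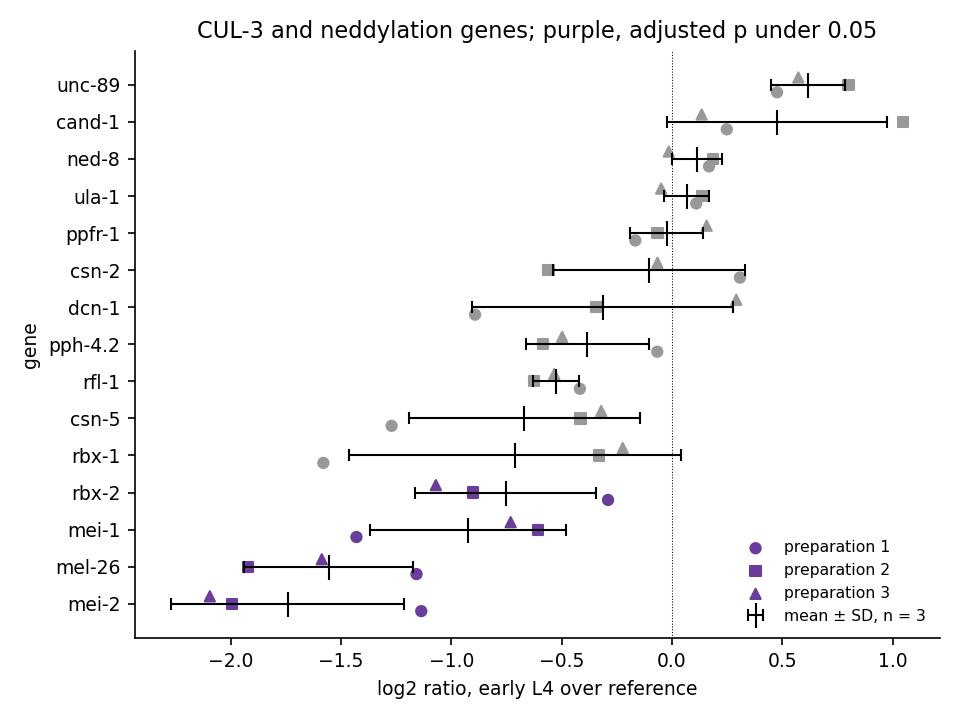
Log2 ratio of early L4 over reference (x axis) for the 15 measured genes of the CUL-3 and neddylation list, by preparation, with the mean and SD over 3 arrays in black; purple genes had an adjusted p under 0.05. mei-2, mel-26, mei-1 and rbx-2 lie below 0 on all 3 arrays. So do rbx-1, csn-5, rfl-1 and pph-4.2, which were not called (means -0.71, -0.67, -0.53 and -0.38). unc-89 and cand-1 lie above 0 on all 3 arrays and were not called (means 0.62 and 0.48). rfl-1 encodes a subunit of the NED-8 activating enzyme. ned-8 and ula-1, the NED-8 protein and the other part of that enzyme, lie near 0.

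Genes of other adaptors were counted in the same way. Among 10 BTB genes named outside the 3 classes, chiefly those with kelch repeats, 4 were called (40%, against 22.7% of all genes), and only 1 without preparation 2 or without preparation 3. Of the 4, kel-10 rose, with 1.77 ± 0.31, as did kel-8, with 0.77 ± 0.31, while kel-20 fell, with -0.74 ± 0.12, and gcl-1 with -0.76 ± 0.38 (SD, n = 3). The median of these 10 genes was 0.21. Among 24 measured genes of other cullins and of the Skp1-related adaptors, which link F-box proteins to the cullin CUL-1, 4 fell and 1 rose (20.8% called, near the 22.7% of all genes), with a median of -0.30. The genes that fell were skr-5, skr-8, skr-9 and skr-15, with means from -2.13 to -1.22. The gene that rose was the scaffold gene cul-1, with 0.69 ± 0.11. skr-8 and skr-9 are neighbouring family members whose probes may share RNA. The single genes in this paragraph were picked with their values in view.

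The ratios also moved with the place of a probe in the order of probe numbers, which bears on the class medians. Over all probes, the deviation of a probe on 1 array from its own mean correlated with that of the next probe number at r = 0.40, 0.34 and 0.38 for preparations 1, 2 and 3. The correlation was higher again 25 places on (0.37, 0.28 and 0.36) than 12 places on (0.30, 0.18 and 0.32), and near 0 at 5000 places (-0.01, 0.06 and -0.05). These values describe the arrays, over probes that are not independent. Medians of 32 runs of 625 consecutive probe numbers ranged from -0.57 to 0.52 on preparation 1, from -0.36 to 0.63 on preparation 2 and from -0.35 to 0.28 on preparation 3.

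Members crowd into a few such runs. The fullest, the run with 18 member probes, held math-4, math-5, math-7, math-14, math-16 and others, and the medians of its member probes were -0.69, -0.34 and 0.10 on preparations 1, 2 and 3. The medians of all probes in that run were -0.57, -0.09 and 0.10. Over the 95 member probes, the deviation on preparation 1 correlated with that of the 100 nearest probes at r = 0.53, that on preparation 2 at 0.19 and that on preparation 3 at 0.57. math-16 (C16C4.8), for instance, had -1.26, -0.17 and 0.10, where its surroundings had medians of -0.58, -0.22 and 0.06. It was chosen after its values were seen.

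**Figure D5:**
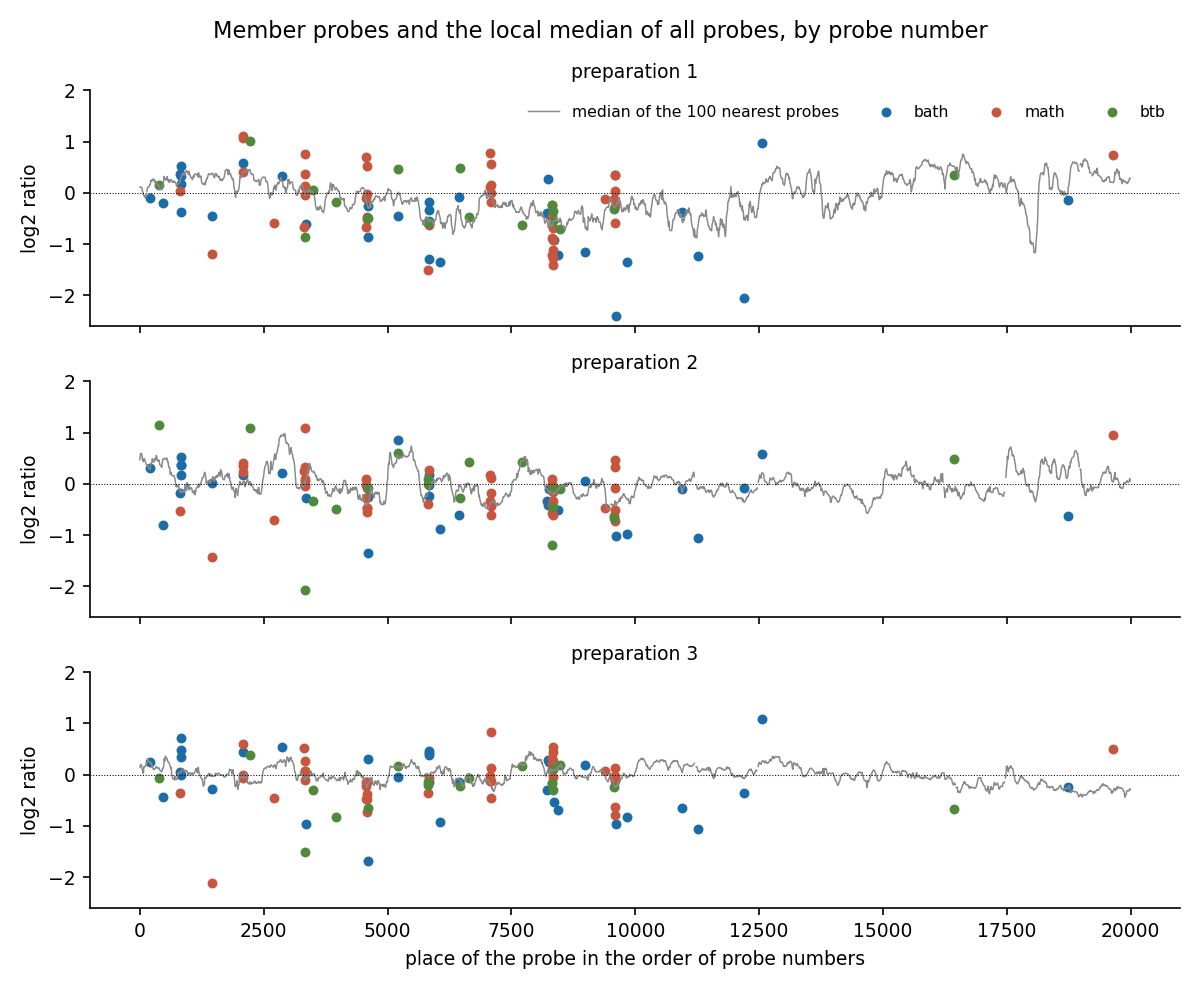
Log2 ratio of the 95 member probes (points, blue bath, red math, green btb) by the place of the probe in the order of probe numbers (x axis), 1 panel per preparation, with the median of the 100 nearest probes of any gene as a grey line. The grey line is not flat and differs between the arrays; on preparation 1 it starts above 0 and then lies below 0 over much of the stretch that holds many members.

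With each probe set against the 100 nearest probe numbers of its array, a choice made after the data were seen, the median of the 94 genes moved from -0.18 to -0.01. The math median moved from -0.15 to 0.05, the btb median from -0.20 to -0.03 and the bath median from -0.23 to -0.11. Centring within runs of 625 probe numbers gave -0.03 for all 94 genes, and 0.03, -0.07 and -0.13 for math, btb and bath. The slight excess of negative ratios thus depended on how the arrays were centred. Some genes that lie close together in the genome, such as math-5 and math-7, also have nearby probe numbers (places 8329 and 8325). Others do not: math-6, which lies between these genes, has its probe at place 3329. On preparation 1 math-5, math-6 and math-7 had -1.40, 0.76 and -1.21, where their surroundings had medians of -0.63, 0.02 and -0.63. math-6 and math-7 were chosen after their values were seen. Whether neighbouring genes shared a change apart from a shift of part of an array was not tested.

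All 11 stayed called under both forms of local centring, with bath-10 at -1.16, math-38 at -1.76, btb-6 at -1.46, bath-44 at -0.88 and bath-37 at 0.69 against the 100 nearest probes. A further 5 genes were then called: bath-15, bath-27 and math-34 lower, and math-18 and math-26 higher. Over all genes the number called also grew with that centring, from 3444 to 4165. The largest cluster still held 0 called genes (limma). The median SD of all genes between arrays fell from 0.36 to 0.29 with that centring, and that of the 94 genes from 0.33 to 0.30.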

How the data were processed

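The deposited table held 1 value per probe and array. As deposited by the authors, each is a log2 ratio between the channels: raised as powers of 2, at least 99.96% per array gave whole thousandths (within 0.01). The sources used here do not give the authors' dyes, background correction, normalization or ratio direction. The deposited medians were 0.05, -0.08 and -0.02. Depth does not apply to arrays, and their number (3) limits the precision. Of 20000 probes, 15655 had 1 gene symbol in the platform annotation, and all of these were found in the WBcel235 gene table.

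Arrays were centred on their medians and spots of a gene averaged. The mean ratio of genes with values on at least 2 arrays was tested against 0 with limma 3.58.1 in R 4.3.3 (2 residual and 7.59 prior degrees of freedom). The reference is no replicated group, so its spread is left out. The fit was also run on simulated ratios with independent errors. That run cannot give the share of false calls where nearby probes are correlated, as they are here. Gene order, without coordinates, came from the gene table.

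Members and lists were chosen with earlier results of these data known. Named genes were the called members, the 3 highest and lowest of each class, and called genes of the CUL-3 list with mel-26, mei-1 and mei-2; others are marked as chosen after their values were seen. The alternatives run were no centring, quantile normalization, genes with values on all 3 arrays, trend and robust settings, single probes, probes of several genes, leaving out each preparation and, added after seeing the data, local centring by probe number and other limits for a cluster. No sequences are shown because none were in the sources used here.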

Additional observations from a re-analysis of the deposited data

How the results depend on the processing

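The number of called members lay between 9 and 16 under all alternatives run, against 11. All 11 stayed called with the ratios as deposited, quantile normalization, values on all 3 arrays, single probes, probes of several genes, and both forms of local centring. With trend and robust settings 10 were called, without math-33, which left 1 math gene. Of the 11, 9 stayed called without preparation 1, 8 without preparation 2 and 8 without preparation 3. Those lost were bath-38, btb-14, math-33 and bath-37. Genes gained were bath-39 without preparation 2 or 3, math-5 and math-35 without preparation 3, and bath-29 and math-35 with quantile normalization. Leaving out 1 preparation gave 1 to 2 members called higher, 1 to 3 math genes, 1 to 2 btb genes, 0 to 1 genes of the largest cluster, math medians from -0.198 to -0.0712, and, for kelch-repeat and other BTB genes, 1 to 3 called against 4. Without preparation 1 the median of all members moved from -0.179 to -0.0789, that of bath from -0.230 to -0.102 and that of btb from -0.203 to -0.0866. math-5 was called only without preparation 3 (-1.01), and math-35 after quantile normalization (-0.71) and without preparation 3 (-0.95).

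Local centring, chosen after seeing the data, moved counts and medians. Within runs of 625 probe numbers, 4 math genes and 7 genes of smaller clusters were called, and medians were -0.0277 for all members, 0.0323 for math and -0.0661 for btb. Against the 100 nearest probe numbers, 5 members were called higher, 5 math genes and 8 genes of smaller clusters were called, and medians were -0.00594, 0.0492 and -0.0329. With at most 20 genes between neighbours, 2 genes were called in the largest cluster and 2 in smaller ones. Quantile normalization raised the called genes of other cullins and adaptors from 5 to 8. The cause of these shifts was not tested. The count over all genes was 3444, and stayed between 2423 and 4165 in all alternatives. No paired analysis was possible because the series holds 1 group only.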

Other observations

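Among probes that the annotation gives to several genes, 3 name a gene of these classes and were left out of the main counts. The probe shared by T25D10.1 and btb-2 had log2 ratios of 1.53, 1.87 and 0.93, a mean of 1.44 ± 0.48 (SD, n = 3; limma adjusted p = 0.00261 with such probes kept in the fit), above every single-gene member. Which of the genes it measured cannot be told apart. The probe shared by F14D2.8 and bath-28 had -0.35 ± 0.08, and the probe shared by math-49, math-23 and math-50 had 0.07 ± 0.36; neither was called.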
